A study of Bos taurus with 9 samples.

Results

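The genes described here are 10 genes of bone morphogenetic protein (BMP) signaling and of genes named beside it, measured by RNA sequencing in bovine endometrial cells: the inhibitors of DNA binding ID1, ID2, ID3 and ID4, the growth arrest gene GAS1, TMEM158, the ligands BMP2 and BMP4, and the inhibitory SMADs SMAD6 and SMAD7. They are 10 of the 17162 genes in the table, and all 10 were among the 12578 genes tested. ID4, GAS1 and TMEM158 were chosen because their values were lower in hormone-treated than in untreated cells, and the other 7 genes were added as relatives or pathway members. The rule had no fold threshold. The difference between hormone-treated and untreated cells is therefore given below as a description for all 10 genes, with no test.

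The cells, called BEND, were grown from the endometrium of Holstein cows obtained at an abattoir and are labelled as primary wild-type epithelial cells. The 9 libraries formed 3 groups of 3. CON cells were untreated, GA cells received 1 nM estradiol (E2) and 100 nM progesterone (P4) for 12 h, and GB cells received the same hormones followed by 100 ng/mL interferon tau (IFNT), the interferon with which the ruminant conceptus signals pregnancy, for a further 12 h. All groups were grown in the same medium with fetal bovine serum. The sources used here give no separate collection time for CON and GA, so treatment and time in culture cannot be told apart in the comparisons with GB. They also do not say whether the 3 dishes of a group came from different cows, and the p-values measure the spread between these libraries, which may be technical.

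BMPs are secreted ligands that bind paired type I and type II receptor kinases, which phosphorylate SMAD1, SMAD5 and SMAD9. These join SMAD4 and enter the nucleus, where the ID genes are among the best known direct targets. ID proteins have a helix-loop-helix domain but no DNA-binding region, so they capture E proteins such as TCF3, TCF4 and TCF12 and keep them from DNA. SMAD6 and SMAD7 are induced by the same signals and feed back on the receptors. GAS1 is a membrane-anchored protein that rises in growth-arrested cells and serves as a co-receptor for Hedgehog ligands. TMEM158 encodes a membrane protein first found as a gene induced by RAS in senescent cells. In the uterus, BMP2 is known for its part in the stromal response to an implanting embryo in rodents.

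The label of the cells was set against marker genes. All 8 epithelial markers (KRT7, KRT8, KRT18, KRT19, CDH1, CLDN4, CLDN7 and ESRP1) had a mean below 1 FPKM (a fragment density scaled for exon length and library size), the highest being KRT18 at 0.361 FPKM, and their summed level was 0.43 to 1.9 FPKM in a library. All 10 stromal fibroblast markers were above 1 FPKM, led by VIM at 8539 FPKM, while the study checked its cultures by cytokeratin immunofluorescence, which was not analysed here. The cells are called BEND here, with no cell type. The summed stromal level was 17033 to 17636 FPKM for CON libraries and 17176 to 17561 for GA libraries, and each of the GB libraries was lower, at 15394 to 15510, a difference whose part in the GB comparisons was not tested. VIM, the largest part of that sum, averaged 9082, 8759 and 7777 FPKM in CON, GA and GB. The markers did not all move with the sum, and PDGFRA averaged 150.2, 156 and 196 FPKM. CD14, a monocyte marker that some fibroblasts also express, was at 20.2 FPKM, and the 6 immune markers in the table summed to 20.8 to 27.6 FPKM with no separation of the groups, while the 8 endothelial markers summed to 2 to 3.13 FPKM for GA libraries, 2.67 to 4.05 for CON libraries and, above every GA library, 3.16 to 4.17 for GB libraries. CDH5, an endothelial cadherin and the only one of them above 1 FPKM, averaged 1.43, 1.01 and 1.94 FPKM and rose in GB vs. GA (log2 difference 0.68, adjusted p = 0.0395, limma), a call lost without any one of GA1, GA2, GA3, GB1 and GB3 (adjusted p up to 0.133), and its part in that comparison was not tested. The treatments were visible: GREB1, an estrogen response gene, averaged 0.193, 2.26 and 2.34 FPKM in CON, GA and GB, and ISG15, an interferon-stimulated gene, averaged 4.5, 4.25 and 5582 FPKM. The share of G and C bases in the reads, which the study gives for each library, was higher in every CON library than in any GA or GB library, so it cannot be told apart from the group in the comparisons with CON.

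**Figure D1:**
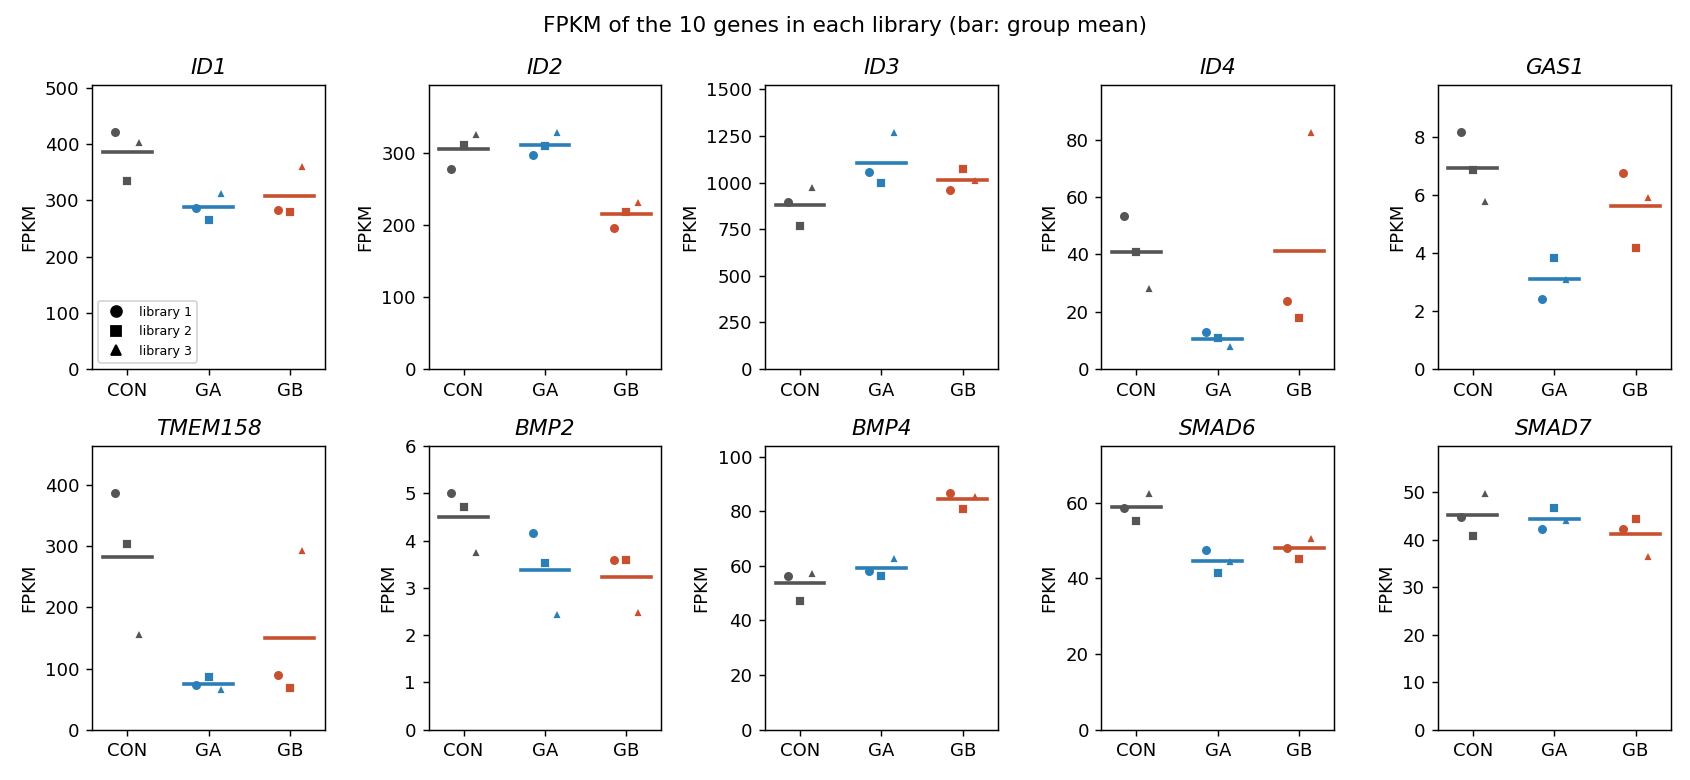
FPKM of each of the 10 genes in the 9 libraries, by group on the x axis; each point is a library, its shape gives the library number and the bar is the group mean, with each y axis starting at 0. BMP4 is above 80 FPKM in all 3 GB libraries and below 63 in the other 6, while ID4 and TMEM158 are far higher in GB3 than in GB1 and GB2.

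The 10 genes covered a wide span of levels, and ID3 was the most abundant of them in every group. FPKM is scaled for exon length and library size but not for base content, so the order of levels between genes is a description. In CON, ID3 at 880 ± 107 FPKM (SD, n = 3) was followed by ID1 at 387 ± 45.9, with no overlap between their libraries, and then by ID2 at 305 ± 25.0 and TMEM158 at 283 ± 117, which overlapped. SMAD6, BMP4, SMAD7 and ID4 followed at means of 58.8, 53.6, 45.1 and 40.9 FPKM, and each overlapped with the next in this order. GAS1 at 6.92 ± 1.19 and BMP2 at 4.49 ± 0.653 FPKM were the lowest and did not overlap with each other. In GA the order of ID1 and ID2 was exchanged, at 288 and 312 FPKM, with overlapping libraries, and BMP2 and GAS1 overlapped at 3.38 and 3.11 FPKM. In GB, ID1 stood above ID2 again without overlap, and BMP4 at 84.4 FPKM stood above SMAD6 at 48.0 without overlap.

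Among the ID genes, ID2 fell in GB relative to both other groups, while ID3 remained the most abundant and ID1 did not pass the test in either comparison. ID2 read 277, 311 and 326 FPKM in CON1 to CON3, 297, 309 and 329 in GA, and 196, 218 and 233 in GB. All 3 GB libraries were below all 6 others, and the CON and GA libraries overlapped. The difference on the log2(FPKM + 0.5) scale, written log2FC below, was −0.50 in GB vs. CON (SE 0.078, adjusted p = 0.0012) and −0.53 against GA (SE 0.078, adjusted p = 0.000948), both from limma and adjusted by Benjamini-Hochberg over all genes tested. These are 1.41-fold and 1.45-fold lower mean levels. The GB vs. CON call was lost, at an adjusted p of 0.0544, when the GC content of the libraries and the replicate number were both entered as covariates. Bulk RNA cannot tell apart fewer cells expressing a gene and less RNA per cell, here or for the genes below.

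ID1, the family member best known as an immediate BMP target, read 422, 335 and 404 FPKM in CON, 286, 265 and 314 in GA, and 284, 280 and 361 in GB. The GA libraries were all below the CON libraries, GB1 and GB2 lay within the GA range, and GB3 lay above GA and within the CON range. In GA vs. CON the log2FC was −0.42 (SE 0.12), given as a description. In GB vs. CON it was −0.33 (95% interval −0.60 to −0.065, adjusted p = 0.0575), and the gene did not pass. It passed without CON2 (−0.43, adjusted p = 0.0233) and without GB3 (−0.45, adjusted p = 0.0144). In GB vs. GA it was 0.089 (95% interval −0.18 to 0.35, adjusted p = 0.61), and −0.030 without GB3.

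ID3 read 895, 767 and 979 FPKM in CON, 1056, 997 and 1270 in GA, and 961, 1072 and 1012 in GB. Every GA library was above every CON library, and GB overlapped with both. The log2FC was 0.33 in GA vs. CON (SE 0.11, a description), 0.21 in GB vs. CON (95% interval −0.028 to 0.45, adjusted p = 0.156) and −0.12 against GA (95% interval −0.36 to 0.12, adjusted p = 0.437). With the GC covariate the GB vs. CON value turned to −0.22.

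ID4, the least abundant ID gene, read 53.5, 40.9 and 28.4 FPKM in CON, 12.8, 10.7 and 7.9 in GA, and 23.6, 17.7 and 82.6 in GB. All GA libraries were below all others, and GB spread from below the lowest CON library to above the highest. Because ID4 was chosen from GA vs. CON, the 3.92-fold lower mean there (log2FC −1.90, SE 0.50) is the rule itself. The values against CON (−0.27) and against GA (1.63) share the libraries that chose it and are given with no test. Without GB3 they became −0.94 and 0.96, and without GB2 the GB vs. CON value was 0.16, so the direction against CON rested on single libraries.

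The summed level of the 4 ID genes overlapped between the groups, at 1613 ± 145 FPKM in CON, 1718 ± 179 in GA and 1580 ± 112 in GB (SD, n = 3). The make-up of that sum differed more than its size. ID3 supplied 54.5 ± 1.81% of it in CON, 64.4 ± 1.59% in GA and 64.4 ± 3.94% in GB, with every treated library above every CON library. ID1 supplied 24.0 ± 1.43%, 16.8 ± 0.481% and 19.5 ± 1.87%, and no 2 groups overlapped. The share of ID2 was 19.0 ± 2.29% in CON, 18.2 ± 1.24% in GA and 13.6 ± 0.206% in GB, where its 3 libraries lay between 13.4 and 13.8%. ID4 supplied 2.57%, 0.619% and 2.54% on average. The ratio of ID1 to ID2 was below 1 in all GA libraries (mean 0.925) and above 1 in all CON (mean 1.28) and GB libraries (mean 1.43). These shares were computed after the levels were known and are given with no test. The GC content of the reads also separated CON from both other groups, so shares that set CON apart cannot be told apart from it. With the GC covariate the log2 difference of ID3 went from 0.33 to −0.073 in GA vs. CON and from 0.21 to −0.22 in GB vs. CON. That of ID1 in GA vs. CON went from −0.42 to −0.87.

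**Figure D2:**
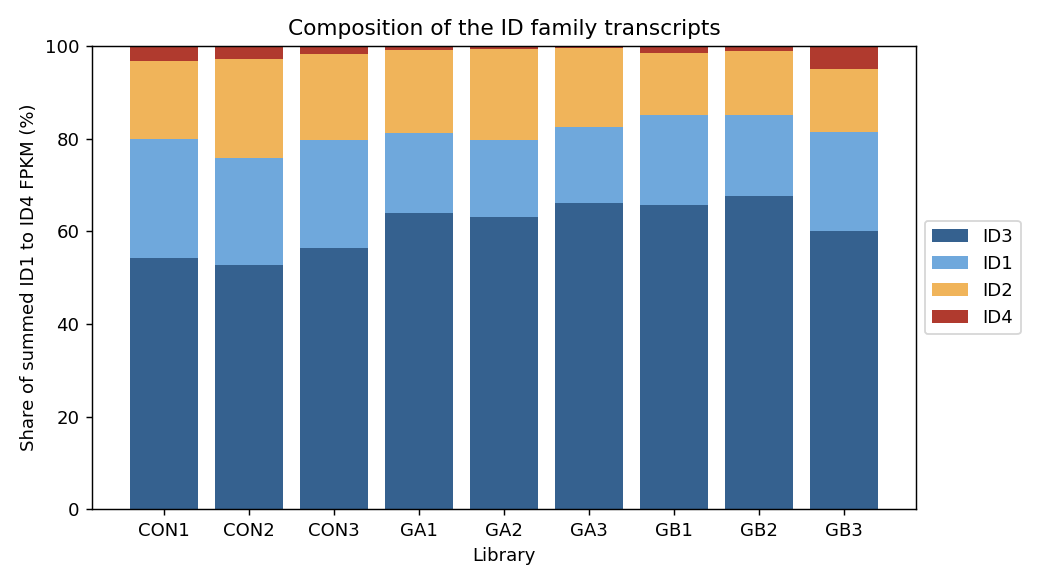
Share of each ID gene in the summed FPKM of ID1 to ID4, in percent, for each of the 9 libraries on the x axis. ID3 takes 52.8 to 56.4% in CON and 63.0 to 66.1% in GA, and ID4 takes 4.89% in GB3 against 1.61% in GB1.

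GAS1 and TMEM158, the other genes chosen by the rule, were lower in every GA library than in any CON library. In GB the libraries of GAS1 lay above those of GA, while those of TMEM158 overlapped with GA. The 2 genes were not compared by a test. GAS1 read 8.15, 6.84 and 5.77 FPKM in CON, 2.42, 3.83 and 3.09 in GA, and 6.74, 4.17 and 5.91 in GB. Every GB library was above every GA library, and GB overlapped with CON. The mean was 2.22-fold lower in GA than in CON (log2FC −1.04, SE 0.20), and the log2FC was −0.29 in GB vs. CON and 0.75 against GA, all as descriptions. Leaving out 1 library at a time gave −0.43 to −0.11 (the last without GB2) and 0.61 to 0.93 for the latter 2 values.

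TMEM158 read 387, 304 and 156 FPKM in CON, 73.1, 85.9 and 66.6 in GA, and 88.7, 68.0 and 294 in GB. GB1 and GB2 lay in or near the range of GA, and GB3 lay within that of CON. The mean was 3.76-fold lower in GA than in CON (log2FC −1.81, SE 0.50), and the log2FC was −1.12 in GB vs. CON and 0.69 against GA, as descriptions. Without GB3 the last 2 became −1.76 and 0.054, and without GB2 −0.71 and 1.10.

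The spread within groups set ID4 and TMEM158 apart from the other genes. The residual SD of log2 values was 0.75 for ID4 and 0.76 for TMEM158, and of the 9970 genes with a mean of at least 5 FPKM, 0.311% and 0.301% had one as large. GAS1 had 0.28 (4.51% as large), and the remaining 7 genes lay between 0.091 and 0.27. In GB the highest library was 4.66 times the lowest for ID4 and 4.32 times for TMEM158, against 1.62 for GAS1 and 1.07 for BMP4. The deviations of ID4 and TMEM158 from their group means correlated with r = 0.96 over the 9 libraries, against 0.35 for ID4 with GAS1 and 0.51 for GAS1 with TMEM158. All 3 values come from the same RNA of the same libraries. Much of the spread of ID4 and TMEM158 came from GB3, and the r of deviations was not computed without it. Without GB3 the SE in GA vs. CON was 0.25 in place of 0.50 for ID4, and 0.29 in place of 0.50 for TMEM158.

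The genes whose pattern over the 9 libraries was most like these 3 were found by Pearson r of log2 values among 11875 other genes with a mean of at least 1 FPKM. For TMEM158 they were CEBPD (r = 0.99), a transcription factor of the acute phase response, PPP1R14B (0.99), a phosphatase inhibitor, and TIMP2 (0.96), an inhibitor of matrix metalloproteinases. CEBPD read 235, 223 and 152 FPKM in CON, 110, 105 and 97.3 in GA, and 107, 98.1 and 207 in GB, with GB3 again in the CON range. For ID4 they were LOC112445915 (0.98), LOC107132952 (0.95) and EFHD2 (0.95), a calcium-binding protein. LOC112445915 ranked the 9 libraries in the same order as ID4, from 9.67 FPKM in GA3 to 91.6 in GB3. For GAS1 they were C1H3orf80 (0.93), LOC112443193 (0.92) and P2RY14 (0.90), a receptor for UDP-sugars, all at 12.1 FPKM or lower in every library. The number of genes with r above 0.9 was 18 for TMEM158, 9 for ID4 and 2 for GAS1. With 9 libraries and so many genes compared, these correlations describe likeness and carry no test.

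**Figure D3:**
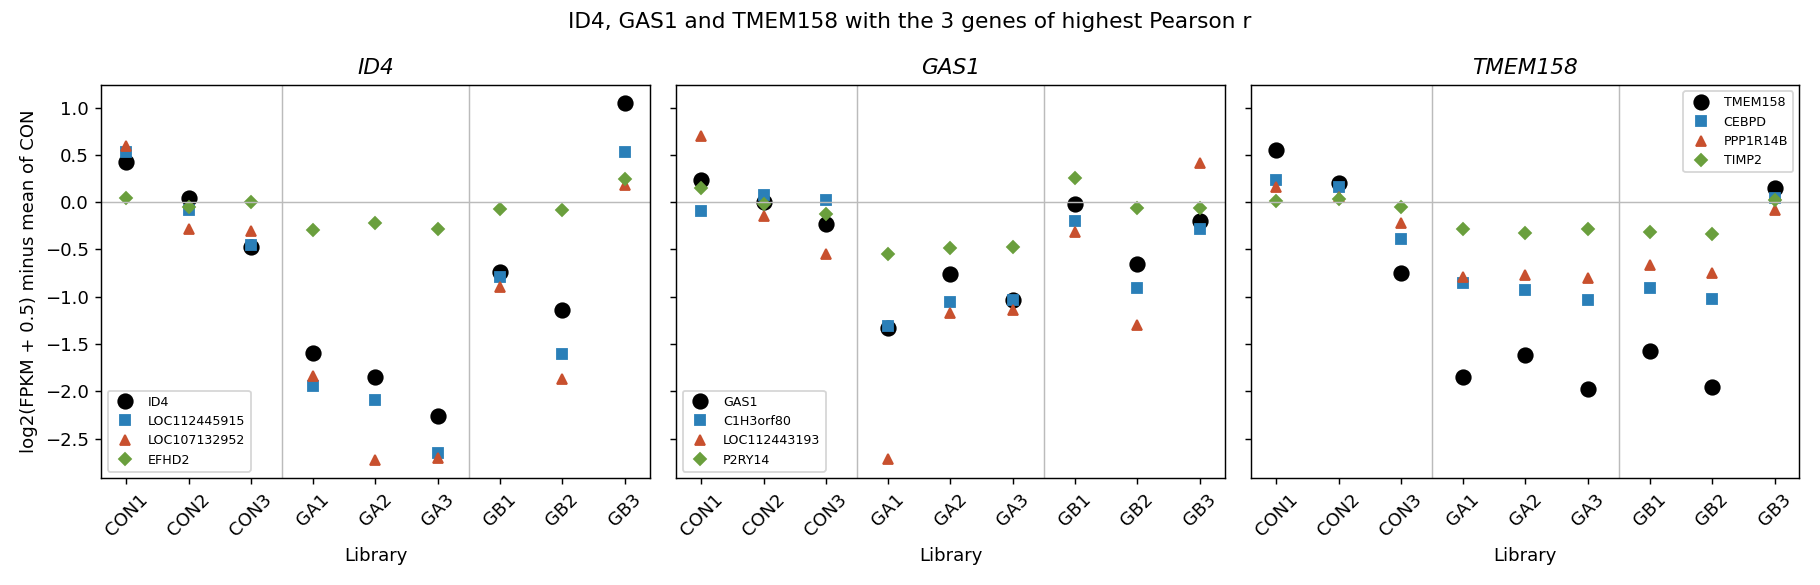
ID4, GAS1 and TMEM158 (black) with the 3 genes of highest Pearson r to each, as log2(FPKM + 0.5) minus the CON mean (y axis) in each of the 9 libraries (x axis). In the panels of ID4 and TMEM158 the GB3 points lie well above GB1 and GB2, and all GA points lie below the CON mean.

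Of the 2 BMP ligands, BMP4 rose in GB and BMP2, at a far lower level, did not pass the test. BMP4 read 56.3, 47.0 and 57.4 FPKM in CON, 58.3, 56.2 and 62.9 in GA, and 86.7, 80.8 and 85.6 in GB. All GB libraries were above all others, and CON and GA overlapped. The mean was 1.58-fold higher in GB than in CON (log2FC 0.66, SE 0.080, adjusted p = 0.000272, limma) and 1.43-fold higher than in GA (log2FC 0.51, SE 0.080, adjusted p = 0.00137, limma). In GA vs. CON the log2FC was 0.14 (SE 0.080), a description. With the GC covariate the GB vs. CON value was 0.37 (adjusted p = 0.068) and no longer passed, while no alternative ended the call in GB vs. GA, where leaving out single libraries gave 0.47 to 0.56.

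BMP2 read 5.01, 4.71 and 3.76 FPKM in CON, 4.17, 3.52 and 2.45 in GA, and 3.59, 3.6 and 2.5 in GB. The GB libraries were all below the CON libraries, by a narrow margin, and GA overlapped with both. The log2FC was −0.38 in GA vs. CON (SE 0.20, a description), −0.43 in GB vs. CON (95% interval −0.87 to 0.021, adjusted p = 0.13) and −0.046 against GA (95% interval −0.49 to 0.40, adjusted p = 0.886). The values against CON were −0.20 without GA3 and −0.28 without GB3. BMP4 was 12.2 ± 2.77 times BMP2 in CON, 18.5 ± 6.26 times in GA and 27.0 ± 6.38 times in GB, and in GB all 3 libraries lay above those of CON.

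Of the inhibitory SMADs, SMAD6 was lower in both treated groups than in CON and SMAD7 did not pass the test. SMAD6, which preferentially restrains BMP receptors, read 58.6, 55.3 and 62.6 FPKM in CON, 47.6, 41.5 and 44.5 in GA, and 48.0, 45.2 and 50.8 in GB. Every treated library was below every CON library, and GA and GB overlapped. The log2FC was −0.40 in GA vs. CON (SE 0.071, a description), −0.29 in GB vs. CON (SE 0.071, adjusted p = 0.0123, limma) and 0.11 against GA (95% interval −0.053 to 0.27, adjusted p = 0.3). The GB vs. CON call was lost with the GC covariate (−0.43, adjusted p = 0.0754). A predicted gene that overlaps SMAD6 in the ARS-UCD2.0 annotation, LOC112441475, was at 0 to 0.16 FPKM.

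SMAD7, which restrains both BMP and TGF-beta receptors, read 44.7, 40.8 and 49.8 FPKM in CON, 42.2, 46.7 and 44.1 in GA, and 42.3, 44.3 and 36.6 in GB. All 3 groups overlapped. The log2FC was −0.022 in GA vs. CON (SE 0.090, a description), −0.13 in GB vs. CON (95% interval −0.34 to 0.071, adjusted p = 0.291) and −0.11 against GA (95% interval −0.32 to 0.093, adjusted p = 0.399).

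Counted over the 10 genes, the libraries of GA lay wholly below those of CON for 5 (ID1, ID4, GAS1, TMEM158 and SMAD6) and wholly above for 1 (ID3). Over all genes tested, 6.13% lay wholly below and 18.6% wholly above, and since the rule used this comparison nothing is read from the difference. In GB vs. CON the libraries were wholly lower for 3 genes (ID2, BMP2 and SMAD6) and wholly higher for 1 (BMP4), against 23.9% and 22.2% of all genes. In GB vs. GA they were wholly lower for 1 (ID2) and wholly higher for 3 (ID4, GAS1 and BMP4), against 31% and 15.7%. ID4 and GAS1 were chosen for low values in these GA libraries, so of the 3 only BMP4 was free of the rule, and nothing is read from that count. Of the 7 genes not chosen by the rule, 3 had an adjusted p under 0.05 in GB vs. CON and 2 against GA, against 33.5% and 29% of all genes tested. None of the 7 was a differentially expressed gene (DEG, absolute log2FC above 1 and adjusted p under 0.05) by limma in either, although 4 and 2 had an unadjusted p under 0.05, and DEGs made up 4.01% and 3.64% of all genes. The median log2FC of these 7 genes was −0.29 in GB vs. CON and −0.046 against GA, beside −0.016 and −0.075 over all genes tested.

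**Figure D4:**
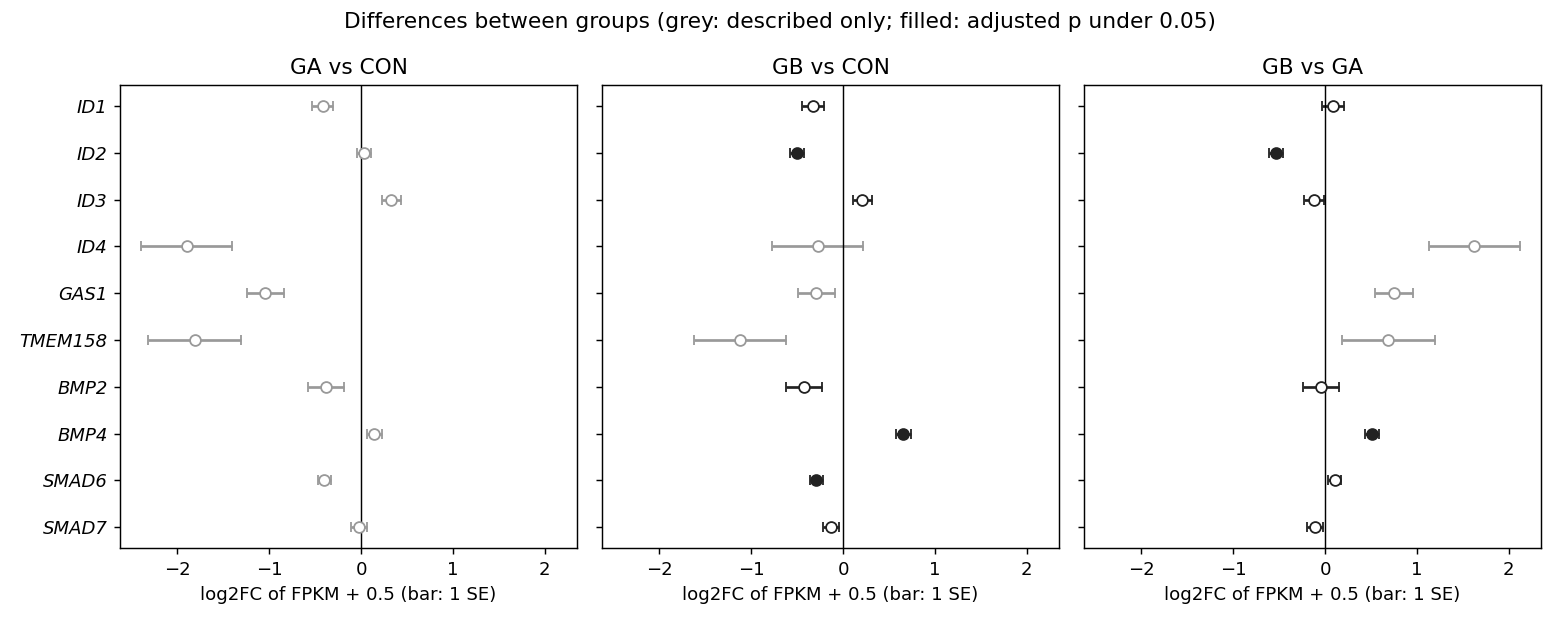
Difference between groups for each of the 10 genes on the log2(FPKM + 0.5) scale (x axis), with bars of 1 SE from the fit over 9 libraries; grey symbols are descriptions with no test and filled symbols had an adjusted p under 0.05. ID2 lies below 0 and BMP4 above 0 in both comparisons with GB, and SMAD6 below 0 in GB vs. CON.

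The rest of the pathway was read from 10 lists of genes, of which 94 genes other than the 10 were tested. In GB vs. CON 10 of them rose and 26 fell (38.3% passed, while of all genes tested 16.2% rose and 17.3% fell), and in GB vs. GA 8 rose and 25 fell (35.1% passed, while 9.87% of all genes rose and 19.2% fell). In GA vs. CON 2 rose and 0 fell by limma (2.13% passed, beside 0.453% of all genes, 0.246% higher and 0.207% lower), with 21 at an unadjusted p under 0.05. None of the 94 was a DEG by limma in any comparison (0.0716% of all genes in GA vs. CON), while 50 had an unadjusted p under 0.05 in GB vs. CON and 46 against GA. The 2 comparisons with GB share the GB libraries, so their counts are not independent. The same shares of all genes are the background for the counts of each list below. With the GC covariate 14 list genes passed in GB vs. CON in place of 36, and many of the calls lost are named after the Hedgehog list.

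Among the 5 other BMP and GDF ligands tested, 2 fell in both comparisons with GB and none rose. GDF15, a stress-induced ligand, averaged 52.1, 46.8 and 31.3 FPKM in CON, GA and GB (log2FC −0.73 and −0.57, adjusted p = 0.000168 and 0.000874). GDF7 averaged 21.3, 16.4 and 13.3 FPKM (−0.66 and −0.29, adjusted p = 0.000151 and 0.0163), and in GB vs. GA it no longer passed without GA1 or GB2 (adjusted p up to 0.0579). Of 6 TGF-beta and activin ligands, 2 rose in both. INHBA, the activin A subunit, averaged 133, 124 and 163 FPKM (0.29 and 0.39, adjusted p = 0.00195 and 0.000404), and TGFB3 15.6, 17.9 and 22.2 FPKM (0.50 and 0.31), the latter call being lost without any one of GA1, GA2, GB1, GB2 and GB3 (adjusted p up to 0.0786).

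Of 14 receptors and co-receptors, 5 fell in GB vs. CON and 3 against GA, and 0 rose in either by limma. At an unadjusted p under 0.05 were 6 and 4. The 5 were 35.7% of the list, beside 17.3% of all genes tested. The 3 were 21.4%, near the 19.2% of all genes that fell against GA. The type I receptor BMPR1B fell in both comparisons and averaged 7.75 ± 0.64, 6.71 ± 0.22 and 4.68 ± 0.13 FPKM in CON, GA and GB (log2FC −0.67 and −0.48, adjusted p = 0.000332 and 0.00269). BMPR1A, a type I receptor more abundant than BMPR1B, averaged 17.1, 19.4 and 20.3 FPKM and did not pass in any comparison. ACVR1, a further type I receptor, averaged 49.8, 45.9 and 43.2 FPKM and fell in GB vs. CON (−0.20, adjusted p = 0.0252), a call lost without CON2, GB1 or GB3 (adjusted p up to 0.0732). The type II receptor BMPR2 averaged 26.1, 28.9 and 25.6 FPKM and fell in GB vs. GA (−0.17, adjusted p = 0.0302), a call lost without GA1, GA3 or any GB library (adjusted p up to 0.105). The co-receptor TGFBR3 fell in both (−0.40 and −0.29), in GB vs. GA not without GA1, GA3 or GB3 (adjusted p up to 0.0912), and RGMB fell in GB vs. CON (−0.24), not without CON1, CON2, GB1 or GB3 (adjusted p up to 0.102). The GB vs. CON calls of BMPR1B, ACVR1, TGFBR3 and RGMB were lost with the GC covariate.

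Of 6 signal-carrying SMADs, 1 rose and 3 fell in GB vs. CON, and 0 rose and 2 fell in GB vs. GA by limma. At an unadjusted p under 0.05 were 4 and 5. SMAD1, which carries BMP signals, averaged 31.4 ± 1.7, 32.4 ± 2.0 and 23.6 ± 0.71 FPKM in CON, GA and GB and fell in both comparisons (log2FC −0.40 and −0.45, adjusted p = 0.00131 and 0.000817). SMAD3, which carries TGF-beta and activin signals, averaged 57.0, 50.7 and 37.2 FPKM and also fell in both (−0.61 and −0.44, adjusted p = 0.000145 and 0.0012). SMAD9 fell in GB vs. CON (57.9 against 47.4 FPKM, −0.29, adjusted p = 0.00916). SMAD4, the common partner, averaged 70.2, 75.2 and 82.6 FPKM and rose in GB vs. CON (0.23, adjusted p = 0.0153), though not without CON1 or GB3 (adjusted p up to 0.0537). SMAD5 averaged 57.2, 64.0 and 56.6 FPKM and passed in no comparison. The GB vs. CON calls of SMAD1, SMAD4 and SMAD9 were lost with the GC covariate, and that of SMAD3 was lost when the replicate block was added to it.

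Among 8 secreted antagonists, 1 passed, and it rose. FST, the activin and BMP antagonist follistatin, averaged 194 ± 17, 171 ± 7.3 and 277 ± 16 FPKM in CON, GA and GB (log2FC 0.52 and 0.69, adjusted p = 0.000556 and 9.83e-05). Its GB vs. CON call was lost with the GC covariate. GREM1, the most abundant of the 8, averaged 649, 650 and 652 FPKM and passed in no comparison. FSTL1, also above FST at 549, 573 and 587 FPKM, passed in none either. Of 10 membrane and intracellular inhibitors, 2 rose and 2 fell in GB vs. CON, and 1 rose and 4 fell in GB vs. GA. SKI and SKIL, related co-repressors of SMADs, moved in opposite directions: SKI averaged 82.1, 78.0 and 61.7 FPKM (−0.41 and −0.34), and SKIL 22.9, 24.7 and 31.2 FPKM (0.44 and 0.34), with all 4 values at an adjusted p of 0.00348 or lower. TOB1, an antiproliferative protein that restrains BMP SMADs, was higher in GA and GB alike, at 58.6 ± 3.9, 105 ± 6.4 and 107 ± 1.9 FPKM (GA vs. CON 0.84, adjusted p = 0.00243, and GB vs. CON 0.87, adjusted p = 6.19e-06). The GA vs. CON call of TOB1 was lost with the GC covariate. BAMBI, a decoy receptor, fell in GB vs. GA (−0.28, adjusted p = 0.0485), a call lost without any of 6 libraries (CON2, GA2, GA3, GB1, GB2 and GB3, adjusted p up to 0.15).

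Of 11 other BMP and TGF-beta target genes, 1 rose and 2 fell in GB vs. CON, and 2 rose and 3 fell in GB vs. GA. The GB vs. CON counts were 9.09% and 18.2% of the list, beside 16.2% and 17.3% of all genes tested. Those against GA were 18.2% and 27.3%, beside 9.87% and 19.2%. CYR61, a matricellular protein, averaged 615, 798 and 893 FPKM and rose in all 3 comparisons (GA vs. CON 0.38, adjusted p = 0.00845, GB vs. CON 0.54 and GB vs. GA 0.16). The GA vs. CON call of CYR61 was lost with the GC covariate. TGFBI, an extracellular matrix protein, fell in GB relative to both others (1173, 1094 and 837 FPKM, −0.49 and −0.39). RUNX2, an osteogenic transcription factor, averaged 25.7, 24.2 and 21.7 FPKM and fell in GB vs. CON (−0.24, adjusted p = 0.0299), a call lost without CON3 or any GB library (adjusted p up to 0.0943). In GB vs. GA the homeobox gene MSX2 fell (11.0 against 6.76 FPKM, −0.70, adjusted p = 0.0132). The repressor HEY1 rose there (4.05 against 6.23 FPKM, 0.58, adjusted p = 0.0321), though not without GA2, GA3, GB2 or GB3 (adjusted p up to 0.105).

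**Figure D5:**
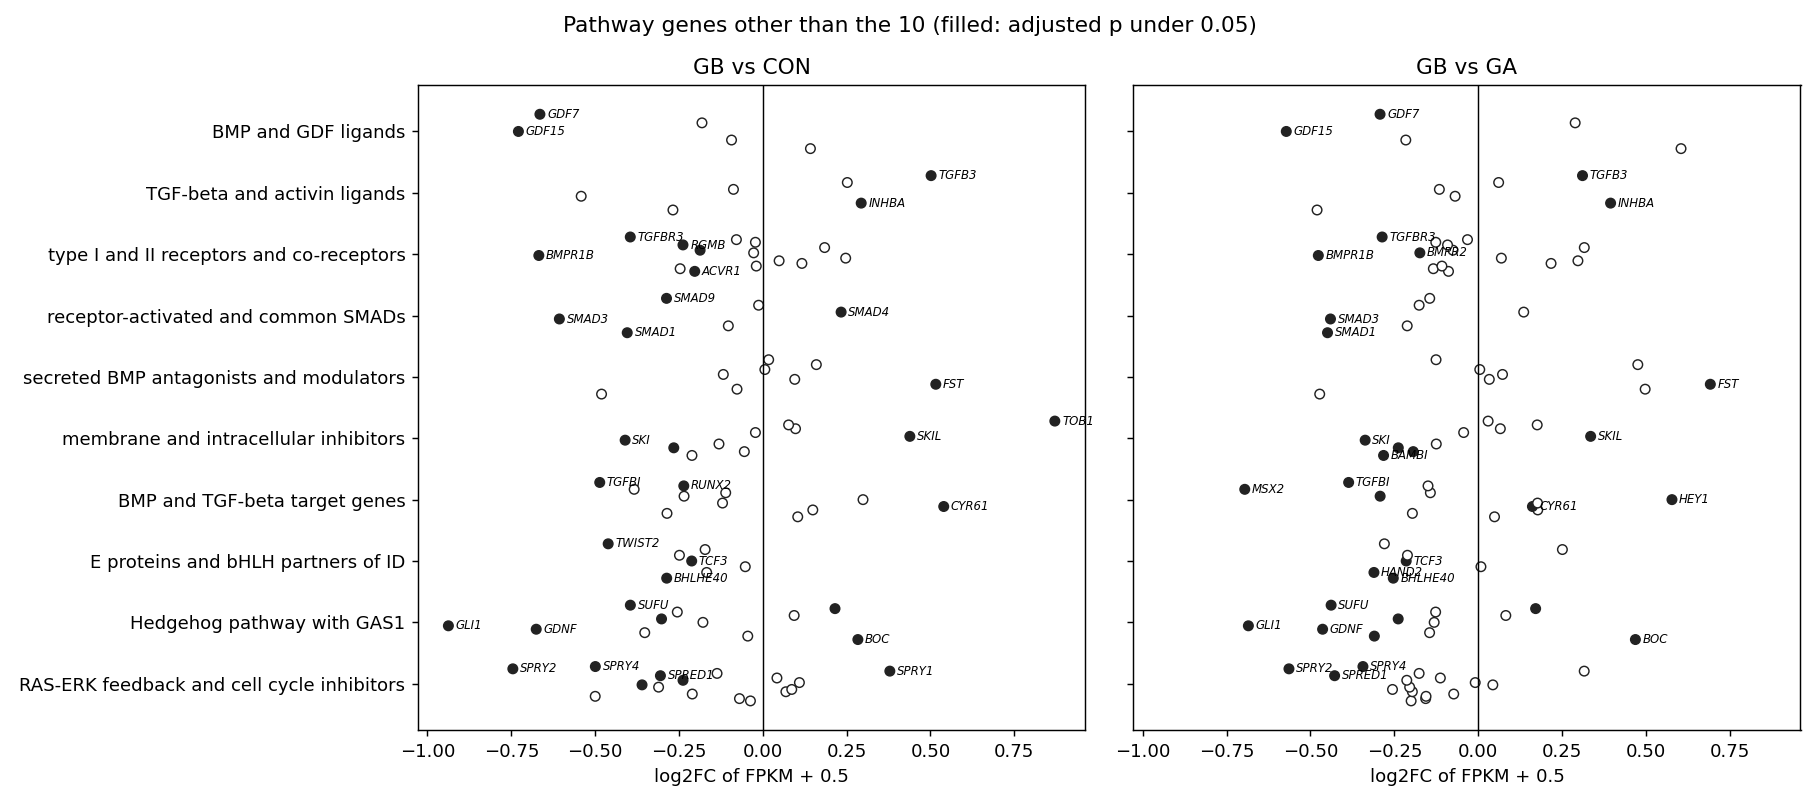
Differences on the log2(FPKM + 0.5) scale (x axis) of the genes of the 10 lists (rows) other than the 10 described, for GB against CON (left) and against GA (right); each point is a gene and filled points had an adjusted p under 0.05. In GB vs. CON 26 genes lie filled to the left of 0 and 10 to the right, with GLI1 farthest left and TOB1 farthest right.

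Of the 7 E proteins and basic helix-loop-helix partners tested, 3 fell in each comparison with GB and 0 rose by limma, with 5 and 3 at an unadjusted p under 0.05. Of the E proteins, TCF3 averaged 23.3, 23.3 and 20.0 FPKM in CON, GA and GB and fell in both comparisons (log2FC −0.21 and −0.21), but not without CON3, GB2 or GB3 in GB vs. CON (adjusted p up to 0.0781) and not without GA2, GA3, GB2 or GB3 in GB vs. GA (adjusted p up to 0.083). TCF4 (12.5, 12.3 and 10.5 FPKM) and TCF12 (54.5, 52.2 and 52.5 FPKM) passed in no comparison. BHLHE40, a repressor of the circadian and hypoxia responses, fell in both (178, 174 and 146 FPKM, −0.29 and −0.25, adjusted p = 0.00184 and 0.00419). HAND2, a progesterone-responsive factor of the uterine stroma, averaged 70.1, 77.3 and 62.2 FPKM and fell in GB vs. GA (−0.31, adjusted p = 0.00795). TWIST2 fell in GB vs. CON (122 against 89.1 FPKM, −0.46, adjusted p = 0.0236), a call lost without CON1 or CON2 (adjusted p up to 0.0635).

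Of 11 genes tested in the list built around GAS1, namely 10 of the Hedgehog pathway and the ligand GDNF, whose receptor RET GAS1 is also known to bind, 2 rose and 4 fell in GB vs. CON, and 2 rose and 5 fell in GB vs. GA. GLI1, both an effector and a target of the pathway, averaged 2.47 ± 0.19, 2.0 ± 0.29 and 1.06 ± 0.18 FPKM in CON, GA and GB and fell in both (log2FC −0.94 and −0.69, adjusted p = 0.00142 and 0.00851). PTCH1, the Hedgehog receptor and likewise a target, averaged 4.91, 4.94 and 5.27 FPKM and passed in no comparison. The Hedgehog ligands IHH and DHH and the receptor RET, also in the list, were too low to be tested. Their highest values in any library were 0.24, 0.43 and 0.2 FPKM. BOC, which like GAS1 is a co-receptor, rose in both (14.3, 12.5 and 17.5 FPKM, 0.28 and 0.47, adjusted p = 0.0124 and 0.00101). GDNF, the glial cell line-derived growth factor, fell in both (37.5, 32.5 and 23.3 FPKM, −0.68 and −0.46, adjusted p = 0.00174 and 0.0135). SUFU, which restrains GLI proteins, also fell in both (6.80, 6.99 and 5.02 FPKM, −0.39 and −0.44), but not without CON1, GB2 or GB3 in GB vs. CON (adjusted p up to 0.081) and not without GA3 or GB2 in GB vs. GA (adjusted p up to 0.0682). With the GC covariate 20 of the 38 GB vs. CON values named from the lists and the treatment and marker genes no longer passed, against 1 of 35 in GB vs. GA, and the 20 included TGFB3, BMPR1B, SMAD1, SMAD4, SMAD9, FST, SKIL, GLI1, BOC and GDNF. With the replicate block added to the GC covariate, 32 of the 38 no longer passed and 6 of the 35. Those lost with this fit in GB vs. CON included GDF15, GDF7, INHBA, SMAD3, SKI, CYR61, TGFBI, BHLHE40, SPRY2, SPRY4, COL3A1 and PDGFRA, while TOB1, GDNF and DES passed. In GB vs. GA the 6 were BMPR2, TGFBR3, BAMBI, HEY1, TCF3 and CDH5. With median-of-ratios scaling 5 of the 35 no longer passed (GDF7, BMPR2, TGFBR3, BAMBI and TCF3, all falls), and 1 of the 38. This scaling moved the median log2FC of all genes in GB vs. GA from −0.075 to −0.0036. The part of that shift in these calls was not tested.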

How the data were processed

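RNA of 9 libraries was measured, and groups follow the labels, doses and times the study's methods. What the authors deposited is FPKM for every gene in each library, to 2 decimals. Per the labels and methods, the submitters' processing notes name fastp 0.21.0, Bowtie2 2.33, HISAT2 2.2.1, RSEM 1.3.3 and DESeq2 1.34.0, the build ARS-UCD1.2 and a directional kit. The sources used here name neither the annotation release nor whether counting used strand. FPKM holds no read counts, so depth is not known from the values. The FPKM of a library summed to 1395620 to 1442720. The lowest values shared by few-read genes differed between libraries by a factor of 0.943 to 1.11 relative to CON1. These factors rest on as few as 3 genes, in GA3, GB1 and GB3. Libraries of a group correlated at r = 0.989 to 0.991.

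In R 4.3.3, limma 3.58.1 was fitted to log2(FPKM + 0.5) of the 12578 genes with a mean of at least 0.5 FPKM, over all 9 libraries with a variance trend, and p-values were adjusted by Benjamini-Hochberg. A fold change on this scale understates the change of low genes. An exact permutation test of 3 against 3 libraries cannot go below 0.1 and was not used. The procedure was tested on simulated data. Plots were made with matplotlib 3.10.9 (Python 3.11.15).

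The members, lists, tests and alternatives were chosen with earlier results of these data known. Named were all 10 members, 12 pathway genes fixed by name with GREB1 and ISG15, up to 3 genes of each list and comparison with the largest change among those with an adjusted p under 0.05, and the 3 genes most like ID4, GAS1 and TMEM158. Some list genes were also named later, for their level or because they did not pass. The alternatives were other pseudocounts (1 and 0.1), filters (none and 1 FPKM) and scalings (TPM, median-of-ratios, quantile), no trend, only the 2 groups compared, a replicate block, the GC content of the reads as a covariate, and each library left out. Genome positions are not given because the reference table is of another assembly, and sequences of the genes were not used here. One further target gene is not reported here, and list counts leave it out.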

Additional observations from a re-analysis of the deposited data

How the results depend on the processing

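Over all genes tested, the deviations of libraries of the same number correlated at r = −0.031 to 0.077, which cannot decide whether the numbers pair the samples. With the replicate block the SE in GA vs. CON was smaller for ID1, ID2 (0.040 in place of 0.078), ID3, BMP2, BMP4 and SMAD6. It was larger for ID4 (0.53 in place of 0.50), GAS1, TMEM158 and SMAD7. With the replicate block, GA vs. CON had 5 DEGs in place of 9, 5 of the 7 genes not chosen by the rule passed in GB vs. CON in place of 3, ID1 passed (−0.33, adjusted p = 0.014) and so did BMP2 (−0.43, adjusted p = 0.0247). ID1 also passed in GB vs. CON with median-of-ratios factors (−0.32), quantile normalization (−0.34) and the GC covariate (−0.81), and without single libraries its value was −0.45 to −0.26. With the GC covariate, GB vs. CON had 1472 genes under an adjusted p of 0.05 in place of 4212 and 14 list genes in place of 36, BMP4 was 0.37 and SMAD6 −0.43 (neither passed), and the sign turned for ID3 (−0.22) and BMP2 (0.087). With the GC covariate and block, GB vs. CON had 328 DEGs in place of 504, 514 genes under 0.05, 4 list genes and 0 of the 7 genes by limma, with ID2 at −0.45, BMP4 at 0.46 and SMAD6 at −0.25 (none passed) and the sign turned for ID3 (−0.14) and PDGFRB (0.019). GA vs. CON had 0 DEGs, 0 genes under 0.05 and 0 list genes in both fits. There ID1 was −0.87 and −0.68, ID3 −0.073 and 0.0026, BMP4 −0.13 and −0.038, BMP2 0.10 and SMAD6 −0.53 with the covariate, and SMAD7 −0.29 with covariate and block. GA vs. CON had 2 DEGs at a filter of 1 FPKM and 3 to 13 without single libraries (4 without CON1 or CON2, 5 without GA1 or GB1, 3 without GA3). Its 57 genes under 0.05 became 34 without a filter, 100 with median-of-ratios factors, 13 without the trend and 7 to 78 without single libraries. In GB vs. GA the sign turned for BMP2 with median-of-ratios factors (0.018) and quantile normalization (0.0094), and without single libraries BMP2 ranged from −0.23 to 0.10 and ID1 from −0.030 to 0.15. The cause of these changes was not tested, and the covariate cannot be told apart from the CON group. In GB vs. GA, ID2 and BMP4 passed under every alternative.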

Other observations

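The list of RAS-ERK feedback and cell cycle inhibitor genes, taken because TMEM158 is known as a RAS-induced gene, held 16 genes tested, of which 1 rose and 5 fell in GB vs. CON and 0 rose and 3 fell in GB vs. GA by limma (8 and 7 at an unadjusted p under 0.05). Among all genes tested, 16.2% rose and 17.3% fell in GB vs. CON, and 9.87% rose and 19.2% fell in GB vs. GA. The 3 that fell in GB vs. GA (18.8% of the list) were near that share. The cell cycle inhibitors CDKN1A, CDKN1B, CDKN1C, CDKN2A, CDKN2B and CDKN2C passed in no comparison. SPRY2, a Sprouty inhibitor of receptor tyrosine kinase signaling, averaged 18.5, 16.2 and 10.8 FPKM in CON, GA and GB (log2FC −0.75 and −0.56, adjusted p = 7.3e-05 and 0.00053). SPRY4 averaged 47.3, 42.5 and 33.3 FPKM and fell in both as well (−0.50 and −0.34, adjusted p = 0.000836 and 0.00727). SPRY1 was the member that rose, in GB vs. CON (6.40 against 8.43 FPKM, 0.38, adjusted p = 0.0307), though not without CON1, CON3, GB1 or GB3 (adjusted p up to 0.0981). The related inhibitor SPRED1 fell in both (27.5, 29.9 and 22.1 FPKM, −0.31 and −0.43), but in GB vs. CON not without CON1, CON2, GB1 or GB3 (adjusted p up to 0.0971).

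Of the 10 stromal fibroblast markers, 1 rose and 5 fell in GB vs. CON, and 1 rose and 6 fell in GB vs. GA. Among all genes tested, 16.2% rose and 17.3% fell in GB vs. CON, and 9.87% rose and 19.2% fell in GB vs. GA. COL3A1, a fibrillar collagen, averaged 386, 372 and 297 FPKM in CON, GA and GB (log2FC −0.38 and −0.32, adjusted p = 0.000277 and 0.000817). The growth factor receptor PDGFRA rose in both (150.2, 156 and 196 FPKM, 0.38 and 0.33, adjusted p = 0.000415 and 0.00113). DES, an intermediate filament of contractile and some stromal cells, fell in both (250.4, 197 and 163 FPKM, −0.61 and −0.27, adjusted p = 3.55e-06 and 0.00109). In GA vs. CON 2 of the 10 markers rose and 2 fell, beside 0.246% and 0.207% of all genes tested. DCN, a matrix proteoglycan, rose there (849.8 against 1116 FPKM), while PDGFRB (276 against 218 FPKM, −0.34) and DES (−0.35) fell. Each of these 3 calls was lost without some single library, DES being lost without CON1, GA1 or GA3 (adjusted p up to 0.0549), DCN without CON1, CON2, GA1, GA2, GA3, GB1 or GB2 (up to 0.141) and PDGFRB without any of the 9 (up to 0.143).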
